A study of Mus musculus with 8 samples.

Results

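Chemokines and their receptors were followed through 4 groups of mouse pro-B cell lines that all lacked Ebf1, a transcription factor needed for B-cell commitment. Members were taken by symbol: every probe whose transcript carried a CCL, CXCL, XCL or CX3CL ligand name, or a CCR, CXCR, XCR1, CX3CR1 or ACKR1 to ACKR4 receptor name, with the 1 brightest probe standing for a gene. This gave 55 genes among the 20125 named genes on the array. A further 10 RefSeq symbols, Cxcl11, Ccl27b, Ccl16-ps, Ccl21a to Ccl21d and Ccl19-ps1 to Ccl19-ps3, matched no probe. The 55 were 34 ligands, 17 signalling receptors and 4 atypical receptors, which bind ligand without the usual G-protein signal. By textbook source, 12 ligands are made mainly by blood cells, 17 mainly by stromal, endothelial or epithelial cells, and 5 by either kind of cell upon interferon or inflammation.

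The lines came from fetal liver of E14.5 Ebf1-deficient embryos of both sexes, depleted of TER119+ and Gr-1+ cells, and grew with SCF, Flt3L and IL-7. Pro-B(+) cells, which could still enter the T lineage, had been kept on mitomycin C-treated OP9 cells, a stromal line from fetal mouse calvaria. Pro-B(-) cells, which could not, had been kept on the thymic stromal line TD7. The pro-B(-) line was further transduced with a lentiviral vector that carries a rat CD2 reporter, either empty (pro-B(-)/Mock) or with mouse Lmo2, a bridging protein of blood-progenitor transcription complexes (pro-B(-)/LMO2). Total RNA of each group was hybridised to 2 one-colour Agilent arrays, 8 in all. Each group is 1 line, so line, stroma and T potential cannot be told apart in the parental comparison. Likewise, a change with Lmo2 is one between the LMO2 and Mock groups. Any other difference between these groups cannot be told apart from the content of the vector. The stromal cells under the transductants and the removal of stroma before RNA isolation are not given in the sources used here. Whether the 2 arrays of a group are separate cultures is described for the parental lines only, so the p-values measure the spread between these arrays, which may be technical. The parental lines lay on 1 slide and the transductants on another. A difference in level between Mock or LMO2 cells and either parental line thus cannot be told apart from the slide. This holds for every ranking of LMO2 against pro-B(+) cells below.

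Chemokines are small secreted proteins that steer migrating cells, and their receptors on leukocytes signal through inhibitory G proteins to phosphoinositide 3-kinase and the actin skeleton. In the fetal liver, bone marrow and thymus, stromal Cxcl12 and its receptor Cxcr4 hold early progenitors in their niche, and Ccl25 with Ccr9, together with Ccl19 or Ccl21 with Ccr7, guides progenitors that settle the thymus. Inflammatory ligands such as Ccl3, Ccl4 and Ccl5 are instead products of activated myeloid, T and NK cells.

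Values below are normalized log2 signals, in which 0 is the 75th percentile of the array's processed intensity and each step of 1 is a doubling, and signals of different genes are not set against each other. A change is a difference of group means, tested with limma over all probes, and is called at a Benjamini-Hochberg adjusted p under 0.05. On single arrays 56.5% to 61.2% of probes were well above background, no spot was saturated, and replicate arrays correlated at 0.999 or more. Lmo2 itself rose 2.76-fold from pro-B(-) to pro-B(+) cells (log2 change 1.46, SE 0.0445, adjusted p = 2.25e-05) and 1.53-fold from Mock to LMO2 cells (0.61, SE 0.0445, adjusted p = 0.000332). The Ebf1 probe was above background on all 8 arrays, and whether it lies within the deleted stretch was not examined. Of the pro-B markers, Il7r, Flt3 and Ptprc were above background in every group. Of the 11 listed 2 were higher and 6 lower in the pro-B(+) line, where 18.3% and 22.8% of all tested probes were, and of 10 tested with Lmo2 3 rose and 5 fell, where 25.8% and 33.1% of all did. By fitted change the higher ones between the parental lines were Cd79b (at least 34.9-fold) and Kit (4.72-fold) and the lower ones were led by Dntt (7.56-fold), Igll1 (at least 1.44-fold) and Vpreb1 (2.44-fold). With Lmo2 they were Dntt (16.2-fold), Cd79b (3.16-fold) and Kit (2.92-fold), and in the lower direction Rag1 (6.86-fold), Rag2 (4.31-fold) and Igll1 (2.48-fold).

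Of the 55 members, 32 were well above background throughout at least 1 group, 5 on some arrays but in no whole group, and 18 on no array. Pro-B(-)/LMO2 had 30 members above background on both arrays, pro-B(+) 28, Mock 22 and pro-B(-) 21. The 18 on no array were Ackr1, Ackr2, Ccl8, Ccl11, Ccl12, Ccl20, Ccl22, Ccl24, Ccl26, Ccr3, Cxcl3, Cxcl9, Cxcl13, Cxcl14, Cxcl15, Cxcl17, Cxcr1 and Xcr1. Ackr3, Ackr4, Ccl28, Ccr1 and Cxcl5 passed on 1 or 2 scattered arrays, so no atypical receptor could be compared.

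In the parental comparison, 23 of the 28 members tested were higher in pro-B(+) cells and 1 was lower, against 18.3% of all tested probes called higher and 22.8% called lower. A gene above background in 1 group alone entered the test through that group, so the count is also given over the 21 members above background on all 4 arrays. There 17 were higher and 1 lower, against 15.5% and 23.8% of all probes so measured. With the Lmo2 vector, 22 of 30 members rose and 3 fell (25.8% and 33.1% of all tested probes), and over the 22 members above background on all 4 arrays 16 rose and 3 fell (24.7% and 34.1%). The median change of the tested members was 1.98 between the parental lines and 1.98 with Lmo2, or 1.86 and 1.86 with genes at background entered at their lower bound, while the median of all tested probes was -0.04 in both. Scaling to each array's median in place of its 75th percentile moved the all-probe median to -0.33 and -0.25, and then 20 members were higher and 2 lower between the parental lines, and 21 higher and 4 lower with Lmo2. Over all probes, 2776 were then called higher and 14914 lower between the parental lines, and 3739 higher and 11693 lower with Lmo2, in place of 4282 and 5342, and 5930 and 7614.

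The blood-cell ligands had the largest median change of any role in both comparisons. All 8 that could be tested between the parental lines were higher in pro-B(+) cells, and all 8 that could be tested with Lmo2 were higher in pro-B(-)/LMO2 cells, against 18.3% and 25.8% of all tested probes. In each comparison 3 of the 8 had no array above background in the low group and so entered the test through the high group. Of the others, 5 between the parental lines and 4 with Lmo2 were above background on all 4 arrays. Their median changes were 3.45 and 5.44 (3.16 and 5.09 with bounds). Of the 12, 7 rose in both comparisons: Ccl3, Ccl4, Ccl5, Ccl6, Ccl9, Ccl17 and Xcl1. For the 5 of these whose promoter window is in RefSeq (GRCm38.p6), the 250 bases before the annotated start are shown, since the genes moved together, with matches to 5 short motifs in capitals on either strand.
Ccl3: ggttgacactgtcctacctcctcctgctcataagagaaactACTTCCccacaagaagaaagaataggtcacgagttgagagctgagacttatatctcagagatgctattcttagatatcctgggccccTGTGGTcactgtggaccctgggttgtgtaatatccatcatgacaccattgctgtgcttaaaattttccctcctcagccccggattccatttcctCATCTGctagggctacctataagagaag
Ccl6: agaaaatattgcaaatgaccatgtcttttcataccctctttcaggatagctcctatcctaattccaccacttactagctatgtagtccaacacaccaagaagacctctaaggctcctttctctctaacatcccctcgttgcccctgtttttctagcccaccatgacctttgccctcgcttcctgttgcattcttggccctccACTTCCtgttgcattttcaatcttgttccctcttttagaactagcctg
Ccl9: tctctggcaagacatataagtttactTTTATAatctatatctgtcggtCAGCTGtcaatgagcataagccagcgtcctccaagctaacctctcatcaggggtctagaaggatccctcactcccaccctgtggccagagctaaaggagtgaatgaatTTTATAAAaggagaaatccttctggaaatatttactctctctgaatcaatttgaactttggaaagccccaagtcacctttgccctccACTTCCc
Ccl17: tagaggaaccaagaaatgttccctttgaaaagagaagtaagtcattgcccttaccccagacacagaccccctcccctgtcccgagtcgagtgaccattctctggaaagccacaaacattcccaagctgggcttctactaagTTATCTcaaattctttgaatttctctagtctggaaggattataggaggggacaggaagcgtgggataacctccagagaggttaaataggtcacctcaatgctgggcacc
Xcl1: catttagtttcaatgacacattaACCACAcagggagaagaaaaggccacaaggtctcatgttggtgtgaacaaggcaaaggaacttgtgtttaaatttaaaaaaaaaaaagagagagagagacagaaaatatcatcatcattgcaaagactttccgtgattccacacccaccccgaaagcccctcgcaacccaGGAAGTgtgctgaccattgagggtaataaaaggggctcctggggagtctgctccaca

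These windows lie at chr11:83649379-83649628 (minus strand) for Ccl3, chr11:83593088-83593337 (minus) for Ccl6, chr11:83578637-83578886 (minus) for Ccl9, chr8:94810203-94810452 (plus) for Ccl17 and chr1:164935523-164935772 (minus) for Xcl1. The ETS letters GGAAGT stood in Ccl3 (209 bases before the start), Ccl6 (48), Ccl9 (7) and Xcl1 (57), and over the blood-cell ligands with a window in 6 of 9, against 19.7% of all 32851 windows and 16 of 42 members. E-box and GATA letters were searched because LMO2 joins complexes that bind them. The E-box CAGNTG stood in Ccl3 (28) and Ccl9 (202) alone of these 5, while 44.8% of all windows and 19 of 42 members hold one. For GATA the letters were AGATAA, in which the first base could also be T, and they were found in Ccl17 (109), with 16.6% over all windows. The RUNX letters TGTGGT stood in Ccl3 (122) and Xcl1 (227), with 14.0% over all windows. A TATA box, spelled TATAAA, was found in Ccl9 (224, and an overlapping pair at 94 and 92), with 12.4% over all windows. Of the 9 blood-cell ligand windows, the E-box, GATA, RUNX and TATA letters each stood in 2. Over the 42 members with a window, the GATA, RUNX and TATA letters stood in 7, 10 and 12. A match of so few letters is a description of the window and not a binding site.

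Ccl3 and Ccl4 (MIP-1α and MIP-1β) are inflammatory ligands secreted by activated macrophages and lymphocytes. Ccl3 measured 3.30 and 3.49 in pro-B(+), 0.66 and 0.44 in pro-B(-), 0.09 and 0.20 in Mock, and 2.99 and 2.93 in LMO2 cells. Ccl4 measured 1.51 and 1.62 in pro-B(+), -3.53 and -3.64 in pro-B(-), -4.26 and -4.15 in Mock, and 1.21 and 1.14 in LMO2 cells. Both genes formed a high pair of groups and a low pair that did not overlap. Ccl3 was 7.18-fold up in pro-B(+) cells (log2 change 2.84, SE 0.107, adjusted p = 4.18e-05) and 7.07-fold higher with Lmo2 (2.82, SE 0.107, adjusted p = 4.75e-05). Ccl4 was 35.7-fold higher between the parental lines (5.16, SE 0.0758, adjusted p = 4.64e-06) and 41.6-fold higher with Lmo2 (5.38, SE 0.0758, adjusted p = 5.61e-06). The difference between the parental and the Lmo2 change was 0.02 for Ccl3 (SE 0.151, adjusted p = 0.91) and -0.22 for Ccl4 (SE 0.107, adjusted p = 0.15). Neither difference was called, within standard errors of 0.107 to 0.151.

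Ccl5 (RANTES), a ligand of Ccr1 made by T and NK cells, had the largest change of any member. It measured 1.05 and 1.11 in pro-B(+), -1.82 and -2.07 in pro-B(-), -2.70 and -2.81 in Mock, and 6.38 and 6.29 in LMO2 cells. The LMO2 arrays thus lay far above those of pro-B(+) cells on the other slide, which in turn lay above both low groups. Ccl5 was 8.13-fold up in pro-B(+) cells (log2 change 3.02, SE 0.0995, adjusted p = 2.71e-05) and 547-fold higher with Lmo2 (9.09, SE 0.0995, adjusted p = 4.1e-06). The 2 changes differed by -6.07 (SE 0.141, adjusted p = 3.55e-05).

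Ccl6 and Ccl9 are mouse ligands of Ccr1 found in myeloid cells. Ccl6 measured 1.35 and 1.43 in pro-B(+), -4.84 and -4.88 in pro-B(-), -6.55 and -5.93 in Mock, where it was not well above background, and -0.76 and -0.71 in LMO2 cells. Ccl9 measured 2.27 and 2.23 in pro-B(+), -1.01 and -1.07 in pro-B(-), -0.51 and -0.52 in Mock, and 1.43 and 1.45 in LMO2 cells. For both, pro-B(+) cells were highest, LMO2 cells next, and the low groups clearly apart. Ccl6 was 76.2-fold up in pro-B(+) cells (adjusted p = 2.51e-05) and at least 40.8-fold higher with Lmo2 (adjusted p = 4.28e-05), where the bound is taken from the lowest signal well above background on the Mock arrays. Ccl9 was 9.77-fold up in pro-B(+) cells (adjusted p = 4.35e-06) and 3.88-fold with Lmo2 (adjusted p = 1.58e-05), a difference in change of 1.33 (SE 0.0672, adjusted p = 0.000193). The corresponding difference for Ccl6 was 0.74 (adjusted p = 0.0854), and it was called when either Mock array was left out (1.05, adjusted p = 0.004, without Mock replicate 1, and 0.43, adjusted p = 0.0287, without Mock replicate 2) and with normexp (1.78, adjusted p = 8.8e-07).

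Xcl1 (lymphotactin), a product of NK and CD8 T cells, was well above background only on the arrays of pro-B(+) (-1.86 and -1.78) and LMO2 cells (1.05 and 1.06). Its pro-B(-) arrays read -7.27 and -6.55 and its Mock arrays -6.30 and -6.49. It was at least 15.8-fold up in pro-B(+) cells (adjusted p = 8.54e-05) and at least 142-fold higher with Lmo2 (adjusted p = 2.94e-05). As with Ccl5, LMO2 cells lay above pro-B(+) cells, and the difference in change was -2.36 (SE 0.336, adjusted p = 0.00412), although it starts from 2 groups at background.

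Ccl17 (TARC), a Ccr4 ligand of dendritic cells, was dim, with -4.95 and -4.62 in pro-B(+), -6.95 and -6.23 in pro-B(-), -5.89 and -6.74 in Mock and -3.89 and -3.82 in LMO2 cells. It was at least 2.03-fold up in pro-B(+) cells (adjusted p = 0.0156), a call lost without pro-B(+) replicate 1 (1.98, adjusted p = 0.0504), pro-B(+) replicate 2 (1.64, adjusted p = 0.083) or pro-B(-) replicate 1 (1.45, adjusted p = 0.0695). With Lmo2 it changed by 2.46 in log2 units (adjusted p = 0.00344), with 1 of the 2 Mock arrays above background, and by 0.80 with normexp background correction (adjusted p = 0.000138), so that its direction is better known than its size.

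The remaining pair of blood-cell ligands each appeared in 1 group. Ccl1, a Ccr8 ligand of activated T and mast cells, was above background only with Lmo2, at -1.26 and -1.30, while its other arrays ran from -8.09 to -5.48. This was at least 28.2-fold above Mock (adjusted p = 2.88e-05). Cxcl2 (MIP-2), a neutrophil attractant, was above background only in pro-B(+) cells, at -4.05 and -4.25, with the other 6 arrays between -8.37 and -7.60. Pro-B(+) cells exceeded pro-B(-) cells at least 3.15-fold (adjusted p = 0.000182). Sizes against a group near background shrank when background was corrected with normexp and an offset of 50, to a log2 change with Lmo2 of 8.34 for Ccl5, 4.25 for Xcl1, 4.06 for Ccl4, 2.66 for Ccl6 and 2.55 for Ccl1, each still called.

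**Figure D1:**
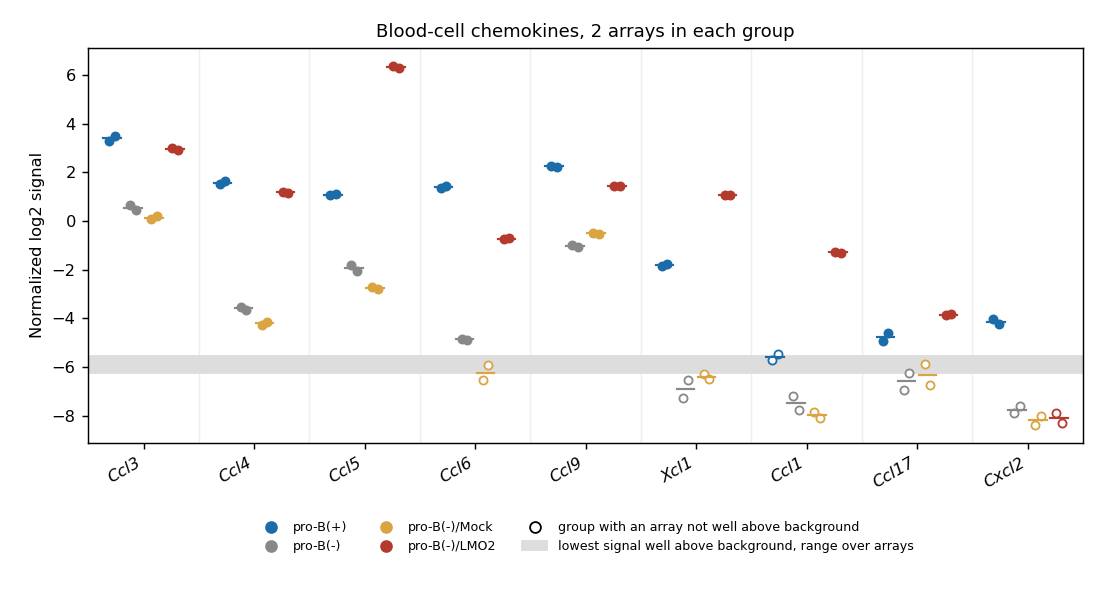
Normalized log2 signal (vertical axis, 0 = 75th percentile of the array) of the 9 blood-cell ligands above background in at least 1 group, with 1 point for each array, a bar at the group mean, open points where an array of the group was not well above background, and a grey band at the lowest signals well above background. Ccl3 and Ccl4 stand high in pro-B(+) and LMO2 cells and low in the other groups, whereas Ccl5 reaches 6.38 in LMO2 cells alone and Cxcl2 leaves the band in pro-B(+) cells alone.

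Markers of blood cells that make these ligands moved in the same comparisons. In bulk RNA, fewer cells of a type and less RNA per cell cannot be told apart. The counts below stand against 18.3% of all tested probes higher and 22.8% lower between the parental lines, and 25.8% and 33.1% with Lmo2, and the genes named have the largest fitted changes of their list. A fold given as at least marks a gene with no array above background in the low group, which entered the test through the high group. Cd3d did so too between the parental lines, and both mast and basophil genes called are of this kind. Summed levels follow the brightest probes of a list. These were Siglech in the dendritic list, Nkg7 in the T and NK list and Mpo in the neutrophil list. Outside pro-B(+) cells, Itgam was the brightest of the macrophage list. A sum adds signals of different probes, so it does not measure how much of a cell type was present. Of the macrophage list, 6 of 7 tested genes were higher in pro-B(+) cells, and with Lmo2 4 of 7 were higher and 2 lower. The summed linear level of that list was 22.3 to 22.5 in pro-B(+), 5.09 to 5.70 in pro-B(-), 6.75 to 7.13 in Mock and 6.38 to 7.05 in LMO2 cells. Between the parental lines it was led by Lyz2, lysozyme (at least 126-fold), Csf1r, the M-CSF receptor (21.8-fold), and Cd14 (at least 18.3-fold). With Lmo2 Lyz2 (at least 10.5-fold), Cd14 (2.80-fold), Fcgr1 (at least 1.42-fold) and Csf1r (1.68-fold) rose, whereas Adgre1, the F4/80 antigen, fell 2.32-fold and Mrc1, the mannose receptor, 1.89-fold. The neutrophil list rose in 7 of 7 and 3 of 4 genes, with summed levels of 32.6 to 33.2, 1.77 to 1.81, 1.04 to 1.09 and 15.9 to 16.6 in the same order of groups. Between the parental lines it was led by S100a9, S100a8 (above background in pro-B(+) cells only) and Ltf (at least 610-fold, 193-fold and 27.0-fold). With Lmo2 it was led by Mpo, Prtn3 and Camp (20.9-fold, 6.88-fold and 1.70-fold). Most of the LMO2 sum was Mpo. S100a8, S100a9 and Ltf were on no LMO2 array, and Elane was not called with Lmo2 (-0.02). The T and NK list rose in 5 of 7 genes in each comparison and fell in 1, with summed levels of 6.61 to 6.62, 2.12 to 2.24, 2.83 to 2.85 and 12.2 to 12.6. Cd3g, Gzma and Gzmb led it between the parental lines (at least 8.47-fold, 10.6-fold and at least 4.67-fold), and Cd3g, Gzmb and Nkg7 with Lmo2 (at least 4.59-fold, at least 1.95-fold and 5.92-fold). In the other direction, Prf1, a cytotoxic granule gene as Gzma, Gzmb and Nkg7 are, was 1.39-fold and 2.01-fold lower, Cd3e was not called (-0.11 and 0.17), and Ncr1, an NK receptor, was on no array. Of 6 mast and basophil genes 2 of 3 tested and 2 of 2 rose, with Ms4a2 and Gata2 on no array, and summed levels were 0.159 to 0.174, 0.0847 to 0.1, 0.0294 to 0.0348 and 0.227 to 0.24. Cpa3, a mast cell protease, was at least 3.97-fold and 12.1-fold higher, and Mcpt8, a basophil protease, at least 2.30-fold and 1.62-fold. The dendritic list rose in 3 of 5 and 2 of 4 genes and summed to 23.6 to 26.8, 25.1 to 28.4, 37.2 to 37.4 and 34.1 to 36.5, with Clec9a on no array. H2-Aa, an MHC class II chain, was at least 70.4-fold and 51.2-fold higher, Itgax 2.99-fold and 2.05-fold, and Cd209a at least 3.92-fold between the parental lines. The part of these cell types in the ligand changes was not tested.

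Of the 7 stromal ligands tested between the parental lines 5 were higher in pro-B(+) cells and none lower (18.3% and 22.8% of all tested probes), and of the 8 tested with Lmo2 4 rose and 2 fell (25.8% and 33.1%). Ccl2 and Ccl7 entered the parental test through pro-B(+) cells alone, and both falls, of Cxcl12 and Ccl25, were lost with the mean over a gene's probes. The median changes were 0.77 and 0.88, and Ccl2 and Ccl7 lay far above them in both comparisons. Ccl2, Ccl7 and Cx3cl1 rose in both, and Cxcl12 was higher in pro-B(+) cells but lower with Lmo2.

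Ccl2 (MCP-1) and Ccl7 (MCP-3) attract monocytes through Ccr2 and are also made by macrophages. Ccl2 measured 0.19 and 0.28 in pro-B(+), -6.06 and -5.90 in pro-B(-), -3.27 and -3.23 in Mock, and -0.60 and -0.65 in LMO2 cells. Ccl7 measured -2.12 and -2.0 in pro-B(+), -7.75 and -7.46 in pro-B(-), -4.08 and -4.12 in Mock, and -1.35 and -1.38 in LMO2 cells. Neither was well above background on a pro-B(-) array, and Mock lay between that line and the high groups. Ccl2 was at least 65.8-fold up in pro-B(+) cells (adjusted p = 3.72e-06) and 6.17-fold with Lmo2 (log2 change 2.62, SE 0.0721, adjusted p = 2.02e-05). Ccl7 was at least 13.4-fold up in pro-B(+) cells (adjusted p = 7.46e-06) and 6.65-fold with Lmo2 (2.73, SE 0.106, adjusted p = 5.15e-05). Both were also higher in Mock than in pro-B(-) cells, by at least 5.88-fold (adjusted p = 4.56e-05) and 3.27-fold (adjusted p = 6.15e-05).

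Cx3cl1 (fractalkine), a membrane-bound ligand of endothelium, measured -1.80 and -1.82 in pro-B(+), -3.82 and -3.75 in pro-B(-), -3.77 and -3.78 in Mock, and -2.38 and -2.34 in LMO2 cells. The pro-B(-) and Mock arrays overlapped (0.01, adjusted p = 0.82) and both high groups stood clear of them. Cx3cl1 was 3.94-fold up in pro-B(+) cells (1.98, SE 0.0473, adjusted p = 1.16e-05) and 2.67-fold with Lmo2 (1.42, SE 0.0473, adjusted p = 3.33e-05), a difference in change of 0.56 (adjusted p = 0.00234). Cxcl1, a neutrophil attractant, was above background in the transductants only, with -5.88 and -5.51 in Mock and -4.19 and -4.21 in LMO2 cells against -7.94 to -5.76 in the parental lines. It rose 2.82-fold with Lmo2 (1.5, SE 0.201, adjusted p = 0.00234).

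Cxcl12 (SDF-1), the niche ligand of Cxcr4, was bright everywhere, with 3.41 and 3.44 in pro-B(+), 2.61 and 2.70 in pro-B(-), 3.03 and 3.09 in Mock, and 2.70 and 2.67 in LMO2 cells. Pro-B(+) cells were highest, Mock next, and the pro-B(-) and LMO2 arrays met. It was 1.70-fold up in pro-B(+) cells (0.77, SE 0.0537, adjusted p = 0.000339) and 1.29-fold lower with Lmo2 (-0.37, SE 0.0537, adjusted p = 0.00299), and the changes differed by 1.14 (SE 0.076, adjusted p = 0.000423), or by 0.19 on a dimmer probe (adjusted p = 0.44). The Lmo2 direction depends on the probe: the dimmer Cxcl12 probe was 1.61-fold higher with Lmo2 (0.69, adjusted p = 0.00747), and the mean over both probes changed by 0.16 (adjusted p = 0.112). Between the parental lines the dimmer probe was 1.83-fold up in pro-B(+) cells (adjusted p = 0.00503), as the brighter one was.

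Ccl25 (TECK), the thymic ligand of Ccr9, measured 0.52 and 0.46 in pro-B(+), 0.37 and 0.34 in pro-B(-), 0.16 and 0.20 in Mock, and -0.08 and -0.10 in LMO2 cells. Its parental change of 0.14 was not called (adjusted p = 0.0708), and it was 1.21-fold lower with Lmo2 (-0.27, SE 0.0471, adjusted p = 0.00564). A second, dimmer Ccl25 probe changed by -0.26 (adjusted p = 0.0419) and 0.13 (adjusted p = 0.194), so its probes disagree in direction in both comparisons. Ccl19, a Ccr7 ligand of lymphoid stroma, ran from -4.45 to -4.02 on all 8 arrays with every change uncalled, the parental one at 0.07 (adjusted p = 0.746). Ccl27a, an epithelial ligand of Ccr10, measured -4.22 and -4.47 in pro-B(+), -5.07 and -4.79 in pro-B(-), -5.69 and -5.97 in Mock, and -5.52 and -5.46 in LMO2 cells. It was 1.5-fold up in pro-B(+) cells (adjusted p = 0.0347), which was lost without pro-B(+) replicate 1 (0.46, adjusted p = 0.14), pro-B(+) replicate 2 (0.71, adjusted p = 0.0624), pro-B(-) replicate 1 (0.44, adjusted p = 0.141) or either LMO2 array (0.58, adjusted p = 0.0646). Near-identical copies of Ccl19 and Ccl27a exist in the mouse genome, so their probes may read several genes.

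**Figure D2:**
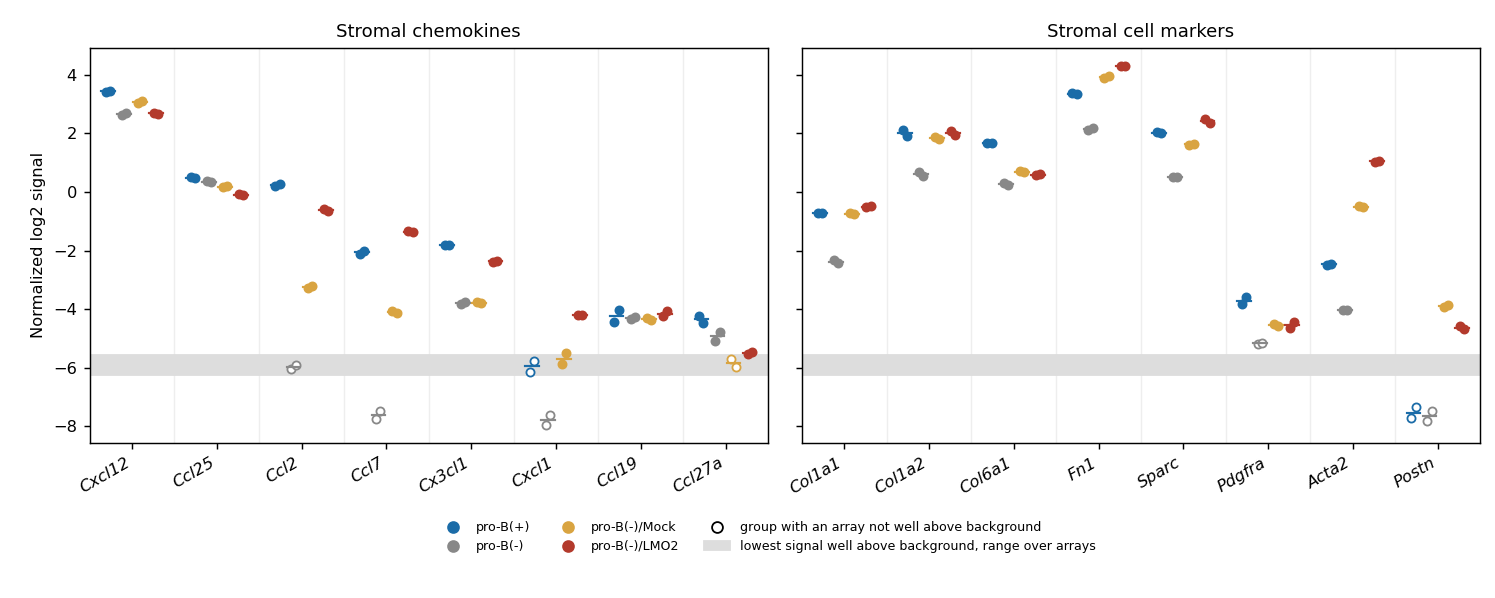
Normalized log2 signal of the 8 stromal ligands above background in at least 1 group (left) and of 8 stromal cell markers (right), with points, bars, open points and grey band as for the blood-cell ligands. Ccl2, Ccl7, Col1a1 and Acta2 are all lowest in pro-B(-) cells, and all 4 are higher in Mock, while Cx3cl1 is level between pro-B(-) and Mock cells.

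Stromal markers moved beside these ligands. Of the 15 listed genes, 9 of 11 tested were higher in pro-B(+) cells, 11 of 12 were higher in Mock than in pro-B(-) cells, and 6 of 12 rose and 1 fell with Lmo2, against 18.3%, 24.2%, 25.8% and 33.1% of all tested probes. Their summed linear level was 22.7 to 23.5 in pro-B(+), 9.28 to 9.46 in pro-B(-), 25.1 to 26.0 in Mock and 34.2 to 35.1 in LMO2 cells. Fn1 was the brightest probe of this list in every group. Fbn1, fibrillin (at least 4.93-fold), Col1a1, a type I collagen chain (3.14-fold), and Acta2, smooth muscle actin (2.96-fold), led between the parental lines. With Lmo2 Acta2 (2.92-fold), Pdgfrb (2.06-fold) and Sparc (1.73-fold) led, Col1a1 was 1.18-fold higher and Postn 1.68-fold lower. Lum, Dcn and Twist1 were above background on no array. Fbn1 and Pdgfra entered the parental test through pro-B(+) cells alone, and Fbn1, Pdgfra and Postn the Mock test through Mock cells alone. Signal of stromal cells in these RNAs and its part in the ligand changes was not tested.

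Of the 5 ligands made by either source, Cxcl10 and Cxcl16 could be measured. Cxcl16, a membrane-bound ligand of Cxcr6, measured -3.34 and -3.24 in pro-B(+), -5.02 and -5.07 in pro-B(-), -5.18 and -5.29 in Mock, and -4.28 and -4.07 in LMO2 cells. It was 3.36-fold up in pro-B(+) cells (1.75, SE 0.0922, adjusted p = 0.000127) and 2.08-fold with Lmo2 (1.06, SE 0.0922, adjusted p = 0.000562), and the groups it separates did not overlap. Cxcl10 (IP-10), an interferon-induced ligand of Cxcr3, measured -1.20 and -1.24 in pro-B(+), -4.69 and -4.42 in pro-B(-), -5.50 and -8.19 in Mock, and -4.48 and -4.33 in LMO2 cells. The Mock arrays lay far apart (SD 1.9), and 1 of them was not well above background.

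Pro-B(+) cells had 10.1-fold more Cxcl10 than pro-B(-) cells (3.33, SE 0.848, adjusted p = 0.0305), with a standard error that comes largely from the Mock pair. The call was lost without pro-B(+) replicate 1 or 2 (3.32 and 3.36, adjusted p = 0.108 and 0.115), pro-B(-) replicate 1 or 2 (3.20 and 3.47, adjusted p = 0.121 and 0.102) or either LMO2 array (3.33, adjusted p = 0.0589), and held without either Mock array (adjusted p = 0.000276). With Lmo2 Cxcl10 changed by 2.44 (adjusted p = 0.0566), by 3.78 without Mock replicate 1 (adjusted p = 0.000621) and by 1.1 without Mock replicate 2 (adjusted p = 0.00758).

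Of the 17 signalling receptors 13 were above background throughout at least 1 group, 9 of them on all 8 arrays. Between the parental lines 8 of 11 were higher in pro-B(+) cells and 1 lower (18.3% and 22.8% of all tested probes), and with Lmo2 9 of 12 rose and 1 fell (25.8% and 33.1%). Ccr2, Ccr6, Ccr7, Cxcr2, Cxcr3 and Cxcr6 rose in both, although both Cxcr2 calls were lost under several alternatives. Cx3cr1 was called between the parental lines, and Ccr9 and Cxcr5 were called in opposite directions.

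The receptors of thymic settling, Ccr9 and Ccr7, were bright in every group. Ccr9 measured 5.26 and 5.21 in pro-B(+), 4.99 and 5.0 in pro-B(-), 5.62 and 5.62 in Mock, and 5.11 and 5.01 in LMO2 cells. Ccr7 measured 2.84 and 2.78 in pro-B(+), 0.84 and 0.83 in pro-B(-), 1.12 and 1.02 in Mock, and 2.23 and 2.07 in LMO2 cells. Ccr9 spanned under 1 log2 unit over all groups, whereas Ccr7 fell into a high and a low pair. Ccr7 was 3.92-fold up in pro-B(+) cells (1.97, SE 0.0729, adjusted p = 4e-05) and 2.12-fold with Lmo2 (1.08, SE 0.0729, adjusted p = 0.000262), a difference in change of 0.89 (adjusted p = 0.00216). Ccr9 was 1.47-fold lower with Lmo2 (-0.55, SE 0.0536, adjusted p = 0.000782). Its parental change of 0.24 (1.18-fold, adjusted p = 0.0196) was lost without pro-B(+) replicate 1 (0.22, adjusted p = 0.0904) or 2 (0.27, adjusted p = 0.0617) or pro-B(-) replicate 1 (0.24, adjusted p = 0.0821) or 2 (0.25, adjusted p = 0.0745), and turned to -0.04 with median scaling.

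Cxcr4, which holds progenitors near Cxcl12, measured -1.15 and -1.06 in pro-B(+), -1.22 and -1.07 in pro-B(-), -0.98 and -0.96 in Mock, and -1.07 and -1.11 in LMO2 cells. Its changes of 0.05 (SE 0.0685, adjusted p = 0.629) and -0.12 (SE 0.0685, adjusted p = 0.197) were not called, and median scaling made the first -0.24 (adjusted p = 0.0188). Cxcr5, the B-cell follicle receptor, measured -1.11 and -1.09 in pro-B(+), -0.45 and -0.47 in pro-B(-), 1.90 and 1.86 in Mock, and 3.56 and 3.59 in LMO2 cells. Its groups formed 4 separate steps, and it was 1.56-fold down in pro-B(+) against pro-B(-) cells (-0.64, SE 0.044, adjusted p = 0.000321), 5.07-fold up in Mock against pro-B(-) cells (adjusted p = 2.33e-05) and 3.23-fold higher with Lmo2 (1.69, SE 0.044, adjusted p = 1.81e-05). The difference between the parental and Lmo2 changes was -2.33 (SE 0.0622, adjusted p = 4.53e-05).

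Ccr6, a receptor of Ccl20 on B cells and T-cell subsets, had the largest receptor change called in both comparisons. It measured -0.55 on both pro-B(+) arrays, -4.45 and -4.33 in pro-B(-), -3.33 and -3.25 in Mock, and -0.01 and 0.00 in LMO2 cells, so that the high and low pairs lay over 2 log2 units apart. It was 14.3-fold up in pro-B(+) cells (3.84, SE 0.0604, adjusted p = 5.29e-06) and 9.73-fold with Lmo2 (3.28, SE 0.0604, adjusted p = 8.87e-06). Ccr2, the monocyte receptor of Ccl2 and Ccl7, measured -0.17 and -0.21 in pro-B(+), -1.77 and -1.67 in pro-B(-), -1.66 and -1.72 in Mock, and 0.72 and 0.66 in LMO2 cells. It was 2.90-fold up in pro-B(+) cells (1.53, SE 0.0579, adjusted p = 4.23e-05) and 5.20-fold with Lmo2 (2.38, SE 0.0579, adjusted p = 1.59e-05), and the 2 changes differed by -0.84 (adjusted p = 0.00127).

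Cxcr3 and Cxcr6 are receptors of effector T and NK cells. Cxcr3 measured -1.15 and -1.17 in pro-B(+), -3.27 and -3.35 in pro-B(-), -3.39 and -3.43 in Mock, and -1.58 and -1.70 in LMO2 cells. Cxcr6 measured -1.45 and -1.38 in pro-B(+), -2.25 and -2.38 in pro-B(-), -2.26 and -2.23 in Mock, and -0.23 and -0.24 in LMO2 cells. In both the pro-B(-) and Mock arrays lay lowest, but pro-B(+) led for Cxcr3 and LMO2 for Cxcr6. Cxcr3 was 4.42-fold up in pro-B(+) cells (adjusted p = 2.13e-05) and 3.41-fold with Lmo2 (adjusted p = 4.21e-05), and Cxcr6 was 1.86-fold (adjusted p = 0.000297) and 4.03-fold (adjusted p = 2.58e-05) higher. The changes of Cxcr6 differed by -1.11 (SE 0.0852, adjusted p = 0.000623), and a second Cxcr6 probe gave 1.75-fold and 3.78-fold.

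Cx3cr1, the fractalkine receptor of monocytes, measured 1.66 and 1.65 in pro-B(+), -0.92 and -0.75 in pro-B(-), -2.15 and -1.93 in Mock, and -1.77 and -1.75 in LMO2 cells. Pro-B(+) cells stood alone, 5.61-fold above pro-B(-) cells (2.49, SE 0.0963, adjusted p = 4.61e-05). With Lmo2 it changed by 0.28 (SE 0.0963, adjusted p = 0.0548), or 0.39 without Mock replicate 2 (adjusted p = 0.032), and the changes differed by 2.21 (SE 0.136, adjusted p = 0.000337). A dimmer Cx3cr1 probe was 5.26-fold up in pro-B(+) cells (adjusted p = 0.0243), with an uncalled difference in change of 2.41 (adjusted p = 0.0584).

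The dim receptors were measured in part of the groups. Ccr10, a receptor of Ccl27a, was above background in Mock (-4.82 and -4.67) and LMO2 cells (-1.82 and -1.93) but not on the parental arrays (-7.19 to -5.42), and rose 7.28-fold with Lmo2 (2.86, SE 0.312, adjusted p = 0.00115). Ccr4, the Ccl17 receptor of T cells, was above background in LMO2 cells alone (-4.59 and -4.72, the other 6 arrays from -7.31 to -6.61), at least 2.72-fold above Mock (adjusted p = 0.00259). Ccr8, the Ccl1 receptor, passed in pro-B(+) cells alone, at -5.09 and -4.86, with the other arrays from -7.33 to -5.58 and a parental change of 0.68 (adjusted p = 0.0922) that was called without either LMO2 array (adjusted p = 0.0176). Cxcr2, a neutrophil receptor of Cxcl1 and Cxcl2, measured -4.96 and -4.99 in pro-B(+), -5.48 and -5.77 in pro-B(-), -6.04 and -6.08 in Mock, and -5.79 and -5.54 in LMO2 cells. Its 1.57-fold parental change (adjusted p = 0.0132) was lost without pro-B(+) replicate 1 (0.64, adjusted p = 0.0633) or 2 (0.66, adjusted p = 0.0627). Its 1.31-fold change with Lmo2 (adjusted p = 0.0451) was lost without either pro-B(+) array (0.39, adjusted p = 0.079), Mock replicate 1 (0.41, adjusted p = 0.122), Mock replicate 2 (0.38, adjusted p = 0.151) or LMO2 replicate 2 (0.27, adjusted p = 0.176). Median and quantile scaling lost both Cxcr2 calls, and normexp the parental one. The Lmo2 call was also lost without the filter on dim probes, with an intensity trend in the variance, with the replicate block and on the compared arrays alone.

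**Figure D3:**
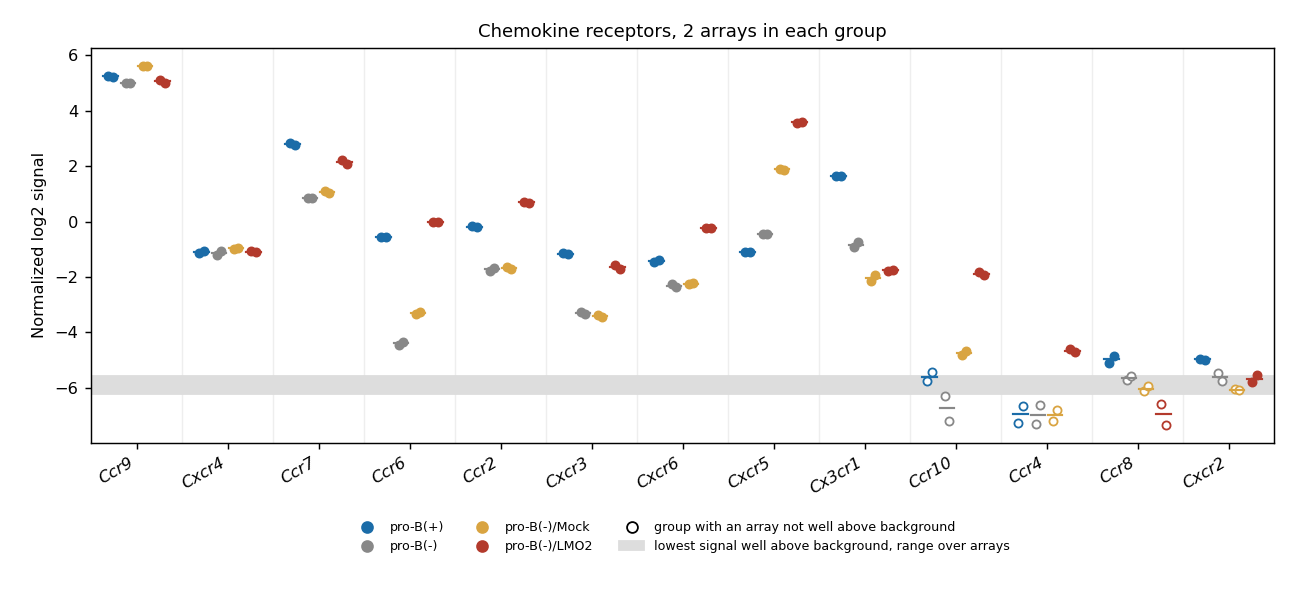
Normalized log2 signal of the 13 signalling receptors above background in at least 1 group, with points, bars, open points and grey band as for the ligands. Ccr7, Ccr6, Cxcr3 and Ccr2 are high in pro-B(+) and LMO2 cells, Cx3cr1 in pro-B(+) cells alone, Cxcr5 steps up from pro-B(+) to LMO2 cells, and Cxcr4 is level.

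The parental and the Lmo2 change are taken from different arrays. The fit gave both 1 residual variance per probe from all 8 arrays, so their calls are not independent. Of the 26 members tested in both, 17 were higher in both, against 9.57% of the 21870 probes tested in both. Of the 18 members above background on all 8 arrays, 11 were higher in both (8.33% of all such probes): Ccl3, Ccl4, Ccl5, Ccl9, Ccr2, Ccr6, Ccr7, Cx3cl1, Cxcl16, Cxcr3 and Cxcr6. No member was lower in both, 2 (Ccr9 and Cxcl12) were higher in pro-B(+) cells and lower with Lmo2, and 1 (Cxcr5) the reverse. The parental call of Ccr9 was lost with median scaling and without single arrays, and the direction of Cxcl12 with Lmo2 depended on the probe.

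**Figure D4:**
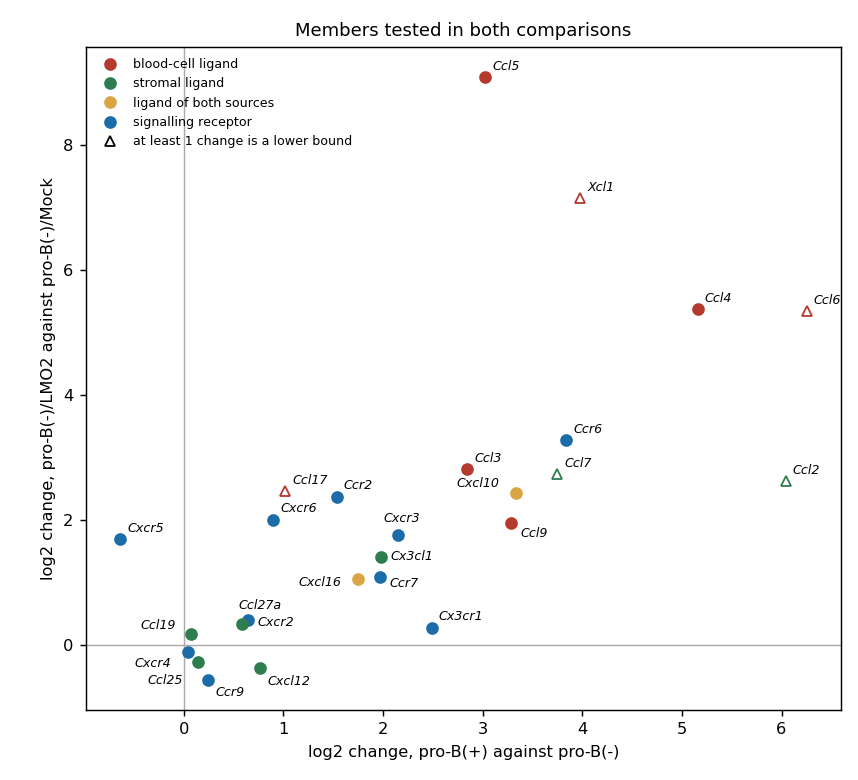
Log2 change between the parental lines (horizontal axis) against that with the Lmo2 vector (vertical axis) for the 26 members tested in both, coloured by role, with open triangles where at least 1 of the values is a lower bound. Most members lie above 0 on both axes, with Ccl5 far above the rest at 9.09 and, among members called in both, Cxcr5, Ccr9 and Cxcl12 on opposite sides of 0.

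Read as ligand and receptor pairs, both partners were measured for several axes. Cxcl12 and Cxcr4 were both above background on every array, with a change called in the ligand alone, whose direction with Lmo2 depended on the probe. For Ccl25 and Ccr9, also measured on every array, the ligand changed by -0.27 and the receptor by -0.55 with Lmo2. The dimmer Ccl25 probe changed by 0.13 (adjusted p = 0.194), so a joint fall rests on 1 ligand probe. Ccl2 and Ccl7 rose with Ccr2, Cxcl16 with Cxcr6 and Cx3cl1 between the parental lines with Cx3cr1. Some other pairs did not move together. Ccl19 was uncalled in both comparisons while Ccr7 rose in both, and Ccl27a was uncalled with Lmo2 while Ccr10 rose. Ccl1 was above background in LMO2 cells alone and its receptor Ccr8 in pro-B(+) cells alone. Xcl1 had no measurable receptor, since Xcr1 was on no array, and for Ccr6 the ligand Ccl20 was on no array. Whether the ligand and the receptor RNA came from the same cells was not tested.

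The difference between the parental and the Lmo2 change was tested for 32 members and called for 22, against 47.8% of all tested probes. The change was higher between the parental lines for 14 of these and lower for 8. Over the 24572 probes tested, it was called higher for 6337 and lower for 5409. Beside those given, Ccl2 and Ccl7 moved further between the parental lines (3.59, SE 0.102, adjusted p = 5.16e-05, and 2.81, SE 0.15, adjusted p = 0.000224), although both start from a background reading in pro-B(-) cells. With normexp the Ccl2 difference was 1.69 and the Ccl7 difference was -0.00256 (adjusted p = 0.982). The Ccr6 changes differed by 0.56 (adjusted p = 0.0052), or 0.0238 with normexp (adjusted p = 0.815), those of Ccr9 by 0.80 (adjusted p = 0.00119) and those of Cxcl16 by 0.69 (adjusted p = 0.0102), or 0.34 with normexp (adjusted p = 0.025). The called differences of Ccl1, Cxcl2, Ccr4 and Ccr8 rest on 3 groups with no array above background, so their sizes depend on background readings. They were -4.81, 3.52, -2.33 and 1.60, and with normexp -2.45, 0.72, -0.67 and 0.0159, the last of which was not called (adjusted p = 0.923). The calls for Cxcr3 (0.38, adjusted p = 0.0225), Ccr10 (-1.71, adjusted p = 0.0276) and Ccr8 (adjusted p = 0.0186) were lost without 6, 6 and 4 of the single arrays. Without 1 array their values ran from 0.31 to 0.44, from -2.17 to -1.26 and from 1.23 to 1.97, with adjusted p up to 0.0731, 0.0849 and 0.0639.

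Between Mock and the untransduced pro-B(-) line, where slide and vector cannot be told apart, 10 of 25 members were higher and 7 lower, against 24.2% and 26.6% of all tested probes, with a median change of 0.0372. Of the higher calls 4 were stromal ligands and 5 receptors, among them Ccl2, Ccl7, Ccr10 and Cxcl1, which were on no pro-B(-) array, and Cxcr5 and Ccr6 (2.15-fold, adjusted p = 0.00024), while blood-cell ligands were higher once (Ccl9, 1.44-fold, adjusted p = 0.00103) and lower 4 times. The lower ones were Ccl6 (at least 2.34-fold, adjusted p = 0.00449), Ccl5 (1.76-fold, adjusted p = 0.0026), Ccl4 (1.53-fold, adjusted p = 0.00269) and Ccl3 (1.33-fold, adjusted p = 0.0273). Cx3cr1 was 2.31-fold lower in Mock (adjusted p = 0.000713) and Ccl27a 1.87-fold lower (adjusted p = 0.00757). Second probes changed by -0.48 (adjusted p = 0.506) and -0.12 (adjusted p = 0.696), and with the mean over a gene's probes both calls were lost (-0.84, adjusted p = 0.0649, and -0.31, adjusted p = 0.191), as was the higher call of Cxcl12 (0.40, then 0.0564). With normexp Ccl27a changed by -0.18 (adjusted p = 0.0776). The calls of Ccl3, Ccl25 and Ccr7 were lost without single arrays: at -0.52 to -0.30 for Ccl3 (adjusted p up to 0.119), -0.19 to -0.15 for Ccl25 (0.142) and 0.19 to 0.28 for Ccr7 (0.187).

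Many members sit next to each other in the genome, and neighbours are not independent readings where they share control or sequence. In RefSeq order on chromosome 11, Ccl5, Ccl9, Ccl6, Ccl3 and Ccl4 follow each other, and all 5 were higher in both comparisons. The other chromosome 11 row, Ccl2, Ccl7, Ccl11, Ccl12, Ccl8 and Ccl1, had 2 genes tested and called between the parental lines and 3 with Lmo2, with the 3 genes in its middle on no array. On chromosome 9, Ccr9, Cxcr6, Xcr1, Ccr1, Ccr3 and Ccr2 lie in this order, and they did not move as 1 row: Cxcr6 and Ccr2 rose in both comparisons, and Ccr9 was lower with Lmo2. On chromosome 8, Cx3cl1 and Ccl17 rose in both comparisons beside Ccl22, which was on no array.

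**Figure D5:**
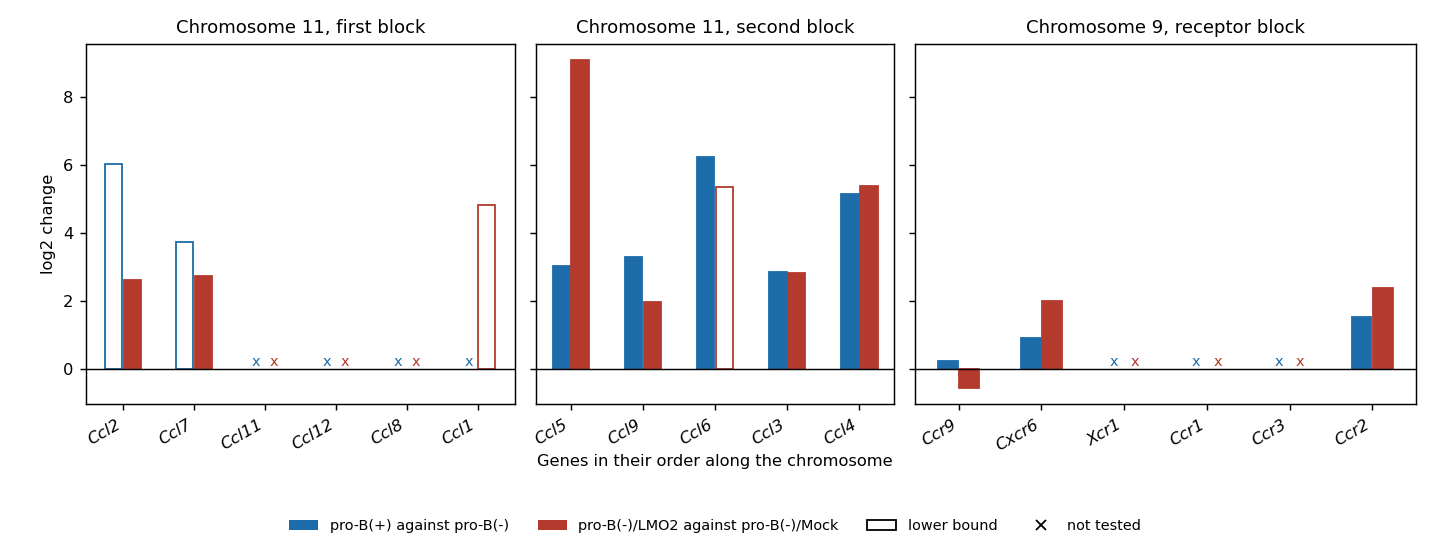
Log2 change between the parental lines and with the Lmo2 vector for members that follow each other on chromosomes 11 and 9, in RefSeq order and not to genomic scale, with lower bounds and genes without a test marked. Ccl5, Ccl9, Ccl6, Ccl3 and Ccl4 all lie above 0 in both comparisons, whereas the chromosome 9 receptors lie on both sides of 0.

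Of a list of pathway genes outside the naming rule, 44 were measured. Most are G proteins, kinases, adaptors and regulators downstream of the receptors. The list also holds the chemokines Pf4 and Ppbp, the receptor-like Ccrl2 and the protease Dpp4, so its counts are not those of signalling genes alone. Pf4, Dpp4 and Ccrl2 were among the higher calls between the parental lines, and Ccrl2 among those with Lmo2. Between the parental lines 16 of 39 tested were higher and 7 lower (18.3% and 22.8% of all tested probes), with a median change of 0.05, and with Lmo2 21 of 37 were higher and 6 lower (25.8% and 33.1%), with a median of 0.19. Pik3r5, the p101 subunit of phosphoinositide 3-kinase gamma, was 5.54-fold up in pro-B(+) cells (2.47, adjusted p = 7.66e-06) and 3.77-fold with Lmo2 (1.91, adjusted p = 1.81e-05). Dpp4, a protease that trims chemokines, was 4.66-fold up in pro-B(+) cells (adjusted p = 0.000343), and Pf4, the platelet chemokine outside the naming rule, was above background in pro-B(+) cells alone (at least 2.40-fold, adjusted p = 0.000195). With Lmo2, Prex1, a Rac activator, rose 3.29-fold (adjusted p = 2.52e-05) and Rgs1, which shortens G-protein signals, 2.63-fold (adjusted p = 3.1e-05).

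The lower calls of the signalling genes were small between the parental lines. They were led by phospholipase Plcb2 (-0.33, adjusted p = 0.0179), the regulator Rgs18 (-0.29, adjusted p = 0.00469) and the kinase subunit Pik3cg (-0.26, adjusted p = 0.0299). With Lmo2, Plcb2 fell by 1.14 in log2 units (adjusted p = 0.000201), Rgs14 by 1.0 (adjusted p = 0.000117) and Plcb3 by 0.33 (adjusted p = 0.00475).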

How the data were processed

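RNA of 8 samples was measured on one-colour Agilent 4x44K arrays. The authors deposited spot intensity as Feature Extraction output, per the file headers: background subtracted, detrended and annotated on mm9. The authors' value table, deposited on the log2 scale after 75th percentile normalization, differed from the log2 processed intensity by 1 constant per array. Control spots and outlier spots were left out, spots of a probe were averaged, and 39378 of 39429 probes were kept. Values are log2 intensity minus each array's 75th percentile. A RefSeq table (GRCm38.p6) named 26550 probes (67.4%) by accession, and 42 of 55 members had a promoter window there.

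Groups and replicate numbers came from the sample titles, apart from the parent line of the transductants, which the titles do not name. limma 3.58.1 (R 4.3.3) fitted 4 group means over all arrays and probes. A probe was tested where at least 1 of the groups compared had it well above background on its 2 arrays. A group with no array above background gave a lower bound. An exact permutation test of 2 arrays against 2 cannot go below p = 0.333 and was not used. Tables were made in Python 3.11.15.

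For genes with several probes, the brightest over the deposited value table stood for the gene. All members above background on both arrays of a group are given by array, and of the other lists the 3 largest called fitted changes in each direction of the parental and Lmo2 comparisons, with some further markers. The fit was tested on simulated data. Alternatives changed the scaling, background correction, filter, variance model, probe choice, replicate block and single arrays. The members and lists were chosen with earlier results of these data known. 1 gene that met the rule is not reported here. The precision is limited by 2 arrays in each group.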

Additional observations from a re-analysis of the deposited data

How the results depend on the processing

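Of 115 member changes tested, 71 kept direction and call under every alternative run. Counts of members called, given as higher and lower, were 23 and 1 between the parental lines, 22 and 3 with Lmo2 and 10 and 7 between Mock and pro-B(-), with 22 called differences. Leaving out 1 array gave 18 to 23 and 1 to 2, 21 to 23 and 3 to 4, 9 to 11 and 5 to 7, and 20 to 23. The parental 2 arose without pro-B(-) replicate 1, where Ackr4, above background on replicate 2 alone, entered the test. Median scaling gave 2 lower between the parental lines, Cxcr5 and Cxcr4. With the mean over all probes of a gene, 1 member was lower with Lmo2. With only probes above background in every group compared, 6 of the fewer members tested were higher in Mock, where 4972 of 21009 probes were. Of the 18 members above background on all 8 arrays, 14 differences were then called, against 10211 of 20364 probes. In the main fit 22 of 32 were called, against 11746 of 24572 probes.

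Same-numbered replicates did not deviate together (correlations -0.0272 to 0.0515), so the numbers were not taken as pairs. With the replicate block the counts were 22 and 1, 22 and 3, 10 and 5, and 21 differences. The calls then lost were Ccl27a between the parental lines, Cxcr2 with Lmo2, Ccl3 and Ccl25 in Mock, and the Ccr10 difference (adjusted p = 0.0507). Cx3cr1 was gained with Lmo2, so the equal count there hides an exchange.

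Background correction moved sizes most. Normexp on median signals, chosen after seeing the data since the planned mean signals were not in the files used, moved 40 of 88 called changes by over 1.5 times, and 37 of those were still called. Under it the parental change became 1.75 for Xcl1, 3.61 for Ccl2 and 1.69 for Ccl7, and the Lmo2 change 8.34 for Ccl5, 4.25 for Xcl1 and 2.55 for Ccl1. Dim genes are thus known in direction better than in size. A prior variance from tested probes only, also chosen after seeing the data, called 24 and 1, 24 and 3, 11 and 7, and 22. A fit on each comparison's own arrays kept 60 of 66 called changes, and it cannot give the difference between the parental and the Lmo2 change.

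These values changed sign, none of them called in the new direction but Cxcr4. In the parental comparison median scaling gave Ccl25 -0.15, Ccr9 -0.041, Cxcr4 -0.24 (adjusted p = 0.0188) and Ccl19 -0.22. The mean over probes gave Ccl25 -0.0632, quantile normalization Ccl19 -0.22 and normexp Ccl19 -0.0798. Without 1 array Cxcr4 ran from -0.0285 to 0.12 and Ccl19 from -0.15 to 0.28. With Lmo2 the mean over probes gave Cxcl12 0.16, median scaling Ccl19 -0.0349, and quantile normalization Ccl19 -0.0359. In Mock against pro-B(-), quantile normalization gave Cx3cl1 -0.0128, and normexp gave Cxcl16 0.14 and Ccl19 0.0453. Without 1 array Cx3cl1 ran from -0.0202 to 0.0489, Ccr2 from -0.0126 to 0.0869 and Ccl19 from -0.0639 to 0.0043. The difference of Ccl3 was -0.0511 with median scaling, -0.0586 with quantile normalization, -0.00208 with normexp and -0.0854 to 0.13 without 1 array. Normexp gave differences of -0.18 for Cxcl1, -0.00256 for Ccl7, 0.18 for Ccl4, -0.0753 for Cxcr2 and -0.0919 for Ccl27a. Without 1 array the differences of Cxcl10 ran from -0.45 to 2.24 and of Ccl19 from -0.32 to 0.11. The cause was not tested.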
